A study of Mus musculus with 67 samples.

Results

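Malat1, Neat1 and Gas5 are long noncoding RNAs, made by RNA polymerase II and not translated into known proteins. Malat1 was selected on its measured abundance, since it ranked first among all genes in most libraries of the pilot experiment; Neat1 and Gas5 were chosen by name as further noncoding RNAs of the nucleus and of growth control. The 3 genes are members of 24421 gene symbols in the pilot experiment and of 24461 features (genes, and transcript names without a gene) in the second experiment. Because Malat1's abundance in the pilot libraries chose it, those values are given as a description with no test.

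Malat1 RNA stays in the nucleus at nuclear speckles, bodies that hold splicing factors such as the serine- and arginine-rich (SR) proteins. Neat1 is the scaffold of paraspeckles, nuclear bodies that hold RNA-binding proteins such as Nono and Sfpq; its gene gives a short transcript and a long one, and the long one is needed to build the body. Gas5 carries small nucleolar RNAs (snoRNAs) in its introns, its spliced RNA is removed by nonsense-mediated decay in growing cells and accumulates on growth arrest, and it can bind the glucocorticoid receptor.

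In the study, T cells were sorted from the hypothalamus and from the rest of the mouse brain. Their RNA was sequenced to ask how a diet rich in fat and sugar (HFHS diet) bears on them. The second experiment holds 59 libraries of pooled Balb/c or C57Bl/6J mice on HFHS diet or standard diet (SD). Activated conventional T cells (Tconv below, gated as CD44 highCD62L low cells negative for CD25 and for the Foxp3GFP reporter, in which green fluorescent protein marks cells with the Treg factor Foxp3) and Tregs were sorted from both tissues. The pilot experiment holds 8 hypothalamic libraries, each from 1 pool of female mice.

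Hypothalamic Tconv came from 4 pools each of Balb/c mice on HFHS diet, Balb/c mice on SD, C57Bl/6J mice on HFHS diet and C57Bl/6J mice on SD. Tconv of the rest of the brain came from 3, 3, 3 and 4 pools of the same groups. Hypothalamic Tregs came from 4 pools of each group, and Tregs of the rest of the brain came from 4, 2, 4 and 4 pools. In the pilot experiment, conventional T cells low or intermediate for CD44 were CD4+CD25- (CD44 low+int cells below). They and Tregs came from 9 pooled Foxp3GFP Balb/c mice each on HFHS diet or SD for 16 weeks. A pool of 7 leptin-deficient, obese *ob*/*ob* mice and a pool of 7 wild-type (WT) mice, both C57Bl/6J, gave CD4+CD25- T cells. Both pools also gave CD4+CD25++ cells, taken as CD25-high Tregs. The study describes these *ob*/*ob* mice as fed SD. Each library is a pool, so variation between single mice was not measured. Balb/c mice on either diet were female and C57Bl/6J mice were male in the study's diet experiments, so strain and sex cannot be told apart. The labels give no age in either experiment, and no weeks on diet or number of mice per pool in the second. By the study's methods, a Tconv sample of the second experiment pooled the cells of 5 mice, and HFHS diet began at an age of 6 weeks. Libraries that share strain, diet and pool in their labels may come from the same mice, which the labels do not state. The main fits did not model such pairs, and fits with pools as a replicate block are given as alternatives.

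Depth differed most among hypothalamic Tregs. Total counts per library were 13196697 to 20538319 in hypothalamic Tconv, 11340062 to 28187003 in Tconv of the rest of the brain, 1724154 to 38482282 in hypothalamic Tregs and 8938478 to 24985601 in Tregs of the rest of the brain. Genes with more than 10 counts numbered 9014 to 10133, 10242 to 11519, 2109 to 9899 and 5433 to 9614 in the same order, against a median of 9295 over the 59 libraries. In 9 libraries, each of hypothalamic Tregs, they numbered under 0.5 times that median: pools 06_10, 32_36, 37_41 and 42_46 of Balb/c mice on SD, pools 06_10, 33_37 and 77_80 of C57Bl/6J mice on HFHS diet, and pools 43_47 and 62_66 of C57Bl/6J mice on SD. Levels below are counts scaled to the library total as CPM. They rest on reads without molecular identifiers, so intervals and detection floors cover counting error only, and in bulk RNA fewer cells of a type and less RNA per cell cannot be told apart.

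The T-cell label was checked against 10 T-cell genes, of which Cd3g was the most abundant. Their summed level was 9087 to 11326 CPM in hypothalamic Tconv, 8763 to 11287 CPM in Tconv of the rest of the brain and 8434 to 12322 CPM in Tregs of the rest of the brain. In hypothalamic Tregs it was 238 to 11882 CPM, with a median of 9587 CPM. The 6 Treg genes, led by Tnfrsf18, had medians of 521 CPM in hypothalamic Tconv and 657 CPM in those of the rest of the brain, and of 2938 and 3888 CPM in the Tregs. Foxp3 itself had medians of 3.93 and 6.09 CPM in Tconv and of 206 and 385 CPM in Tregs, in the same order, with a lowest value of 0.0977 CPM in hypothalamic Tregs.

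In a pair of hypothalamic Treg libraries, genes of another cell type summed above the T-cell genes. In pool 11_15 of C57Bl/6J mice on SD, 5 endothelial genes summed to 12972 CPM, led by Ly6c1, and the T-cell genes to 238 CPM. In pool 32_36 of Balb/c mice on SD, 10 microglial genes summed to 29827 CPM, with Sall1 at 0, and the T-cell genes to 4232 CPM. Malat1, Neat1 and Gas5 stood at 19593, 503 and 107 CPM in the first and at 5872, 4.5 and 0 CPM in the second, so the highest Neat1 value and the lowest Malat1 value of hypothalamic Tregs come from these 2 libraries. Foxp3, the sorting marker, was 1.21 and 0.0977 CPM in them. It was also below the Tconv median in pool 06_10 of C57Bl/6J mice on HFHS diet (0.429 CPM, 5 counts) and pool 43_47 of C57Bl/6J mice on SD (3.48 CPM, 6 counts), although their T-cell genes summed to 10474 and 10327 CPM and their Treg genes to 5186 and 3162 CPM.

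Malat1 lies on chromosome 19 of the mouse genome mm10 from 5795690 to 5802672 on the minus strand (ENSMUSG00000092341). Neat1 lies on the same strand from 5824708 to 5845478 (ENSMUSG00000092274), 22035 bases from Malat1. Gas5 lies on chromosome 1 from 161034422 to 161038539 on the plus strand (ENSMUSG00000053332). The deposited files of the second experiment list Malat1 under 1 transcript name of 6982 bases, Neat1 under a short name of 3185 bases and a long name of 20769 bases, and Gas5 under 1 name of 2554 bases, which the annotation gives as a transcript with a retained intron. No other Gas5 name is listed, so how fully its spliced forms were counted is not known. Each of the 3 genes passed the filter on low counts in all 12 pairwise comparisons of the second experiment.

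Malat1 was among the most abundant RNAs of every library of the second experiment, where its rank was 1 to 8 among all features, with a median rank of 3. Per length, as deposited TPM over the 59 libraries, the median level was 2348 for Malat1, 67.6 for Gas5 and 51.5 for Neat1. Malat1 had 6759 to 16630 CPM in hypothalamic Tconv (median 13686), 11746 to 29207 CPM in Tconv of the rest of the brain (median 15587), 5872 to 32429 CPM in hypothalamic Tregs (median 15409) and 6890 to 25496 CPM in Tregs of the rest of the brain (median 12501). All 4 sets overlapped for Malat1. The low end of hypothalamic Tconv was 1 library, pool 11_15 of C57Bl/6J mice on SD, and the high end of Tconv of the rest of the brain was 1 library, pool 42_46 of Balb/c mice on SD.

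Neat1, the paraspeckle scaffold, had 117 to 405 CPM in hypothalamic Tconv (median 218), 83.0 to 213 CPM in Tconv of the rest of the brain (median 121), 0 to 503 CPM in hypothalamic Tregs (median 69.0) and 0.68 to 454 CPM in Tregs of the rest of the brain (median 182). Neat1 was down to a handful of reads in some Treg libraries. Among hypothalamic Tregs, it had 0 reads in pool 06_10 of C57Bl/6J mice on HFHS diet, where 3 reads would be 0.258 CPM, 1 read in pool 42_46 and 4 reads in pool 06_10 of Balb/c mice on SD. Among Tregs of the rest of the brain, pool 01_05 of C57Bl/6J mice on SD had 17 reads. No Tconv library was near these values.

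Gas5, the snoRNA host gene, had 63.5 to 193 CPM in hypothalamic Tconv (median 144), 96.1 to 386 CPM in Tconv of the rest of the brain (median 191), 0 to 238 CPM in hypothalamic Tregs (median 69.3) and 76.3 to 257 CPM in Tregs of the rest of the brain (median 106). The 2 libraries at 0 were hypothalamic Tregs, pool 32_36 of Balb/c mice on SD, where 3 reads would be 0.293 CPM, and pool 06_10 of C57Bl/6J mice on HFHS diet. The latter library thus held neither Neat1 nor Gas5, while Malat1 stood at 23070 CPM in it and Foxp3 at 0.429 CPM.

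**Figure D1:**
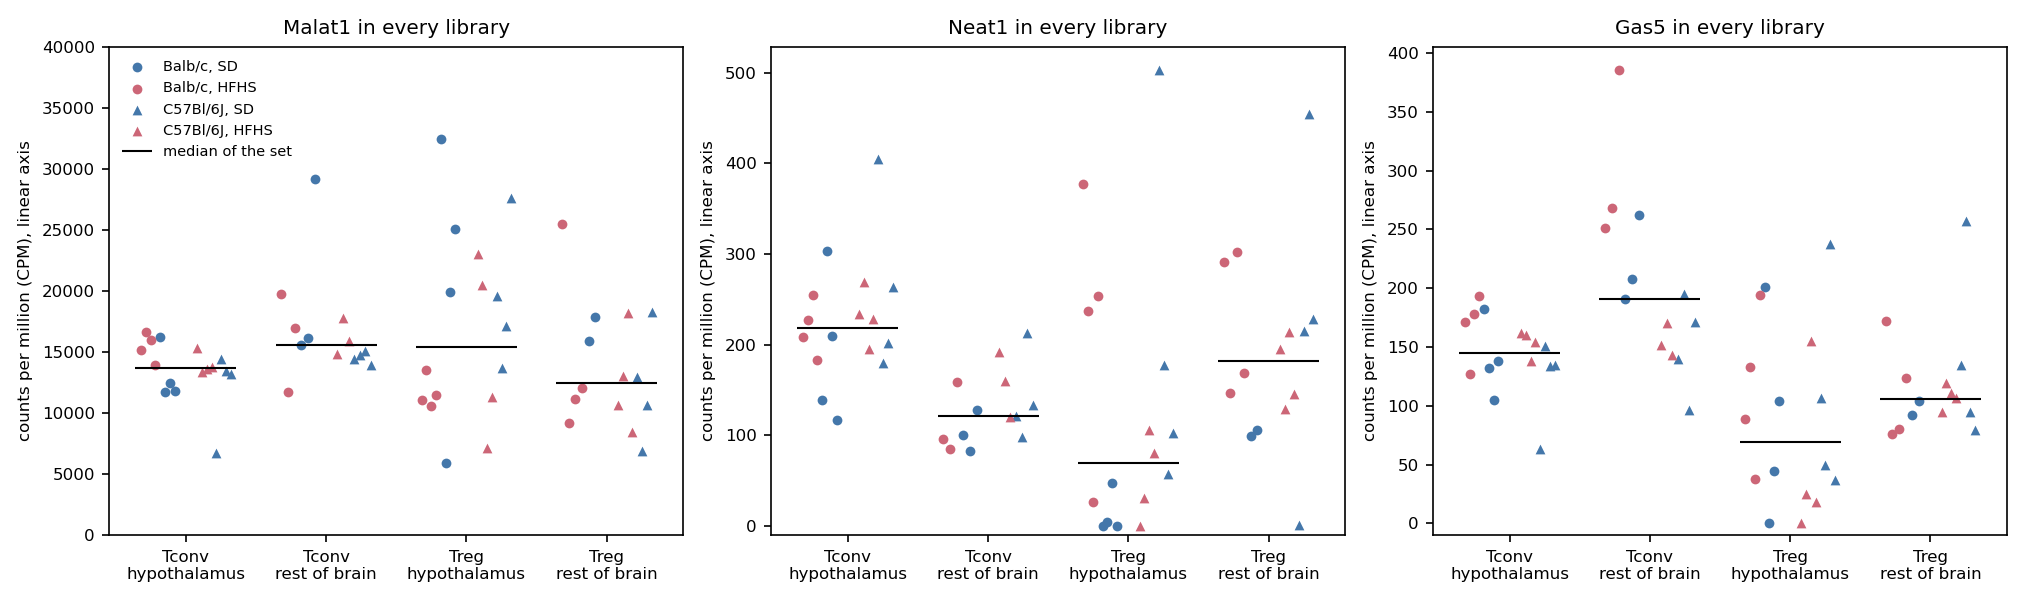
Level of Malat1, Neat1 and Gas5 in CPM in each of the 59 libraries of the second experiment, by cell type and tissue, with colour for diet, marker for strain and a black line at the median. Malat1 spans 5872 to 32429 CPM, and values of Neat1 and Gas5 at or near 0 are Treg libraries.

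Across the 16 groups of cell type, tissue, strain and diet, the mean of Malat1 ran from 20826 CPM in hypothalamic Tregs of Balb/c mice on SD to 11685 CPM in hypothalamic Tregs of Balb/c mice on HFHS diet. Behind the first stood Tconv of the rest of the brain in Balb/c mice on SD (20304 CPM), hypothalamic Tregs of C57Bl/6J mice on SD (19515 CPM) and Tregs of the rest of the brain in Balb/c mice on SD (16886 CPM). The low end also held hypothalamic Tconv of C57Bl/6J mice on SD (11972 CPM) and Tregs of the rest of the brain of C57Bl/6J mice on SD (12190 CPM) and on HFHS diet (12565 CPM). The other 8 groups lay between 13050 and 16186 CPM. In this order, all 15 pairs of neighbouring groups overlapped.

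The order of Neat1 means put hypothalamic Tconv of C57Bl/6J mice first, with 263 CPM on SD and 231 CPM on HFHS diet, and hypothalamic Tregs of C57Bl/6J mice on HFHS diet (54.3 CPM) and of Balb/c mice on SD (12.9 CPM) last. The 4 groups of Tconv of the rest of the brain stood together between 104 and 157 CPM. For Gas5, Tconv of the rest of the brain in Balb/c mice came first, with 302 CPM on HFHS diet and 220 CPM on SD, followed by hypothalamic Tconv of Balb/c mice on HFHS diet (167 CPM). The last 2 were hypothalamic Tregs of Balb/c mice on SD (87.4 CPM) and of C57Bl/6J mice on HFHS diet (49.5 CPM). For Neat1 and for Gas5, all 15 pairs of neighbours overlapped too.

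Malat1 varied little between libraries beside other genes. The standard deviation of log2 CPM of Malat1 was 0.29 in hypothalamic Tconv, 0.31 in Tconv of the rest of the brain, 0.71 in hypothalamic Tregs and 0.54 in Tregs of the rest of the brain, against all-gene medians of 0.83, 0.63, 2.90 and 1.63. For Neat1 the standard deviation was 0.42, 0.41, 2.29 and 2.07, and for Gas5 it was 0.36, 0.33, 2.41 and 0.51. Of all genes, 2.61% varied less than Malat1 in hypothalamic Tregs, and 74.9% varied less than Neat1 in Tregs of the rest of the brain. The latter spread of Neat1 rests largely on 1 library, pool 01_05 of C57Bl/6J mice on SD, at 0.68 CPM. The other libraries of that set lay between 99.3 and 454 CPM. Abundant genes vary less in count data, and the genes were not matched for level.

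The short Neat1 name took most of the Neat1 reads in Tconv. The long name took 2.09% to 29.8% of Neat1 reads in hypothalamic Tconv (median 14.3%) and 3.61% to 34.1% in Tconv of the rest of the brain (median 12.8%). In Tregs with at least 100 Neat1 reads, it took 0% to 100% in 12 hypothalamic libraries (median 20%) and 0.0741% to 60.8% in 13 libraries of the rest of the brain (median 18.6%). Tconv libraries lay within the range of Treg libraries. Hypothalamic Tregs of Balb/c mice on HFHS diet held both of the libraries at 100%, pool 11_14 with 14522 reads and pool 16_20 with 456 reads, both on the long name. Libraries with the long name at 0 included hypothalamic Tregs of C57Bl/6J mice on SD, pool 62_66, with 2105 reads on the short name. Per length, as TPM, the long name made up a median of 2.34%, 2.07%, 3.55% and 3.19% of Neat1 in hypothalamic Tconv, Tconv of the rest of the brain, hypothalamic Tregs and Tregs of the rest of the brain. Since the short transcript lies within the long one, the split of reads is an estimate of the deposited quantification.

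**Figure D2:**
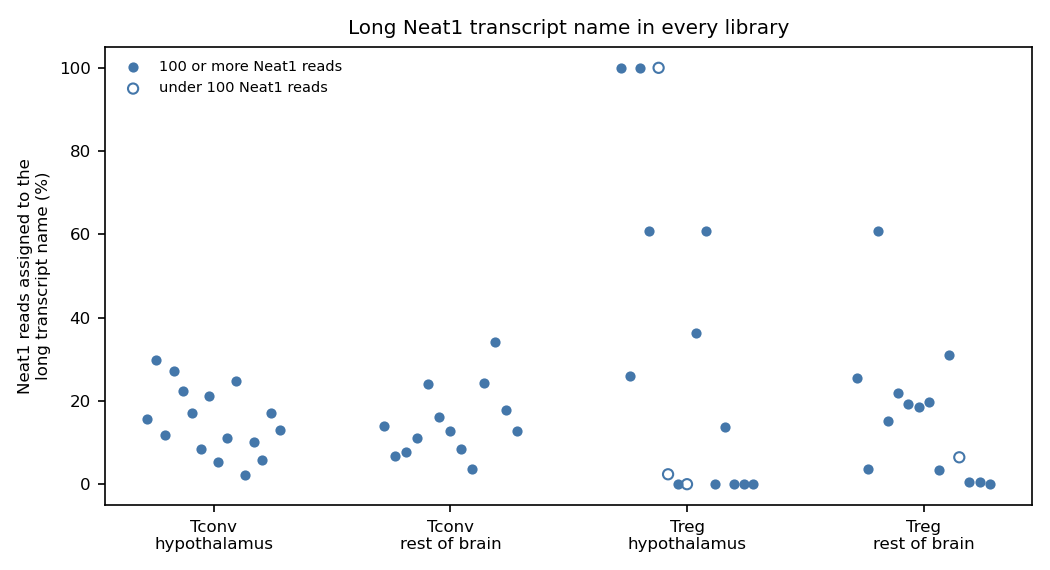
Share of Neat1 reads given to the long transcript name, in percent, in each library of the second experiment, by cell type and tissue, with open markers for libraries under 100 Neat1 reads. Tconv libraries lie between 2.09% and 34.1%, and Treg libraries between 0% and 100%.

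The tissue comparison asks how T cells of the hypothalamus differ from those of the rest of the brain. In Tconv, the 3 RNAs moved in both directions: Neat1 rose to a median of 218 CPM in the hypothalamus from 121 CPM in the rest of the brain, while Malat1 fell to 13686 from 15587 CPM and Gas5 to 144 from 191 CPM. Neat1 was above the median of the rest of the brain in 15 of 16 hypothalamic libraries and above its highest library in 8. Malat1 was above the median of the rest of the brain in 3 of 16 hypothalamic libraries, and Gas5 in 1 of 16. The ranges of the tissues overlapped for each gene. In deposited TPM the medians were 75.4 and 38 for Neat1, 2325 and 2446 for Malat1, and 70.3 and 86.3 for Gas5, a smaller step for Malat1 and Gas5.

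In edgeR, which fitted strain and diet as further terms, the log2 difference of Neat1 in Tconv was 0.72 (SE 0.14, adjusted p = 0.000731, 1.64-fold). Malat1 had a log2 difference of −0.39 (SE 0.11, adjusted p = 0.0149, 1.31-fold lower), and Gas5 one of −0.57 (SE 0.15, adjusted p = 0.00818, 1.48-fold lower). Thus 3 of 3 passed the threshold of an adjusted p of 0.05, against 16.9% of the 12799 genes tested, and the median log2 difference of all genes was −0.09. In simulated data, false calls in this comparison were above the nominal share. With the number of genes above 10 counts as a covariate, Neat1 kept its side of the threshold, while the difference was −0.57 for Malat1 (adjusted p = 0.194) and −1.01 for Gas5 (adjusted p = 0.0541), both further from 0. With pools as a replicate block, in the 18 libraries of the 9 pools with both tissues, it was 1.01 for Neat1 (adjusted p = 0.043), −0.50 for Malat1 (adjusted p = 0.123) and −0.76 for Gas5 (adjusted p = 0.07). Tconv of the rest of the brain had more such genes (median 10773) than hypothalamic Tconv (median 9598), and the part of this in the differences was not tested further. In C57Bl/6J libraries alone the log2 differences were −0.22, 0.75 and −0.15 for Malat1, Neat1 and Gas5 with adjusted p = 1, 0.209 and 1. In Balb/c libraries alone they were −0.63, 0.63 and −1.04 with adjusted p = 0.00283, 0.034 and 0.000126. Over all genes, the C57Bl/6J fit called 1, the Balb/c fit 3015 and the fit with pools as a block 33, against 2169 as reported. Whether the tissue difference differs between strains was not tested. With counts rebuilt from TPM and scaled by TMM, each of the 3 differences passed. For Malat1 and Gas5, of 1 name each, rebuilding multiplies the length back, so this is no separate support.

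Of all 12799 genes tested in the tissue comparison of Tconv, 728 rose and 1441 fell in the hypothalamus, and the lists of partners were not tested against this or each other. Of 17 tested snoRNA host RNAs, the class of Gas5, 6 fell in the hypothalamus and 0 rose, with a median log2 difference of −0.79; Snhg11 had −5.84 and Snhg6 −1.32. Of 15 other long noncoding RNAs, 4 fell and 0 rose, led by the imprinted Meg3 (−6.61) and by Miat (−5.81), and the median was −0.49. Of 17 paraspeckle proteins, Nono (0.39) and Ewsr1 (0.29) rose and 0 fell, with a median of 0.08. Of 20 nuclear speckle and SR proteins, 2 rose, namely Srsf4 (0.88) and the RNA helicase Ddx39b (0.42), and 5 fell, among them Luc7l3 (−0.97) and Tra2a (−0.89), with a median of −0.12.

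Among 10 nonsense-mediated decay factors, 1 rose, namely Upf3a (0.90), and 1 fell in hypothalamic Tconv, and the median was −0.09. Among the glucocorticoid receptor and its targets, 10 genes in all, the phosphatase gene Dusp1 (0.92) rose and 0 fell, with a median of 0.13. Markers of neurons, 8 genes, summed to 0 to 8.89 CPM in hypothalamic Tconv (median 0.108) and to 0.121 to 102 CPM in Tconv of the rest of the brain (median 1.36), and the most abundant of them over the 59 libraries was Snap25. The 102 CPM were those of pool 42_46 of Balb/c mice on SD, which also held 820 CPM of the 10 microglial genes and the highest Malat1 value. Without that pool, the tissue differences of Malat1, Neat1 and Gas5 were −0.29, 0.77 and −0.53 with adjusted p = 0.0487, 0.000856 and 0.0202.

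In Tregs, the tissue differences did not pass the test. Malat1 was above the median of the rest of the brain in 10 of 16 hypothalamic libraries, Neat1 in 4 and Gas5 in 6, and the ranges overlapped. Among 10 pools with both tissues, Malat1 was higher in the hypothalamus in 9, Neat1 lower in 9 and Gas5 lower in 8. With pools as a replicate block, the differences were 0.43, −1.48 and −0.71, and none passed. The all-gene median of that fit was −2.40. The log2 differences in edgeR were 0.28 (SE 0.20, adjusted p = 0.685) for Malat1, −0.58 (SE 0.83, adjusted p = 0.976) for Neat1 and −0.39 (SE 0.80, adjusted p = 0.997) for Gas5. Of the 3, 0 passed, against 4.92% of 12567 genes, of which edgeR called 618, 1666 had an unadjusted p under 0.05 and DESeq2 called 1192; the median of all genes was −0.61. None of the 6 lists had a called gene in this comparison, with 17 paraspeckle proteins, 20 nuclear speckle and SR proteins, 17 snoRNA hosts, 10 decay factors, 9 glucocorticoid receptor genes and 15 other long noncoding RNAs tested. Without the libraries of few genes, the difference of Neat1 was 0.28 in the opposite direction.

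**Figure D3:**
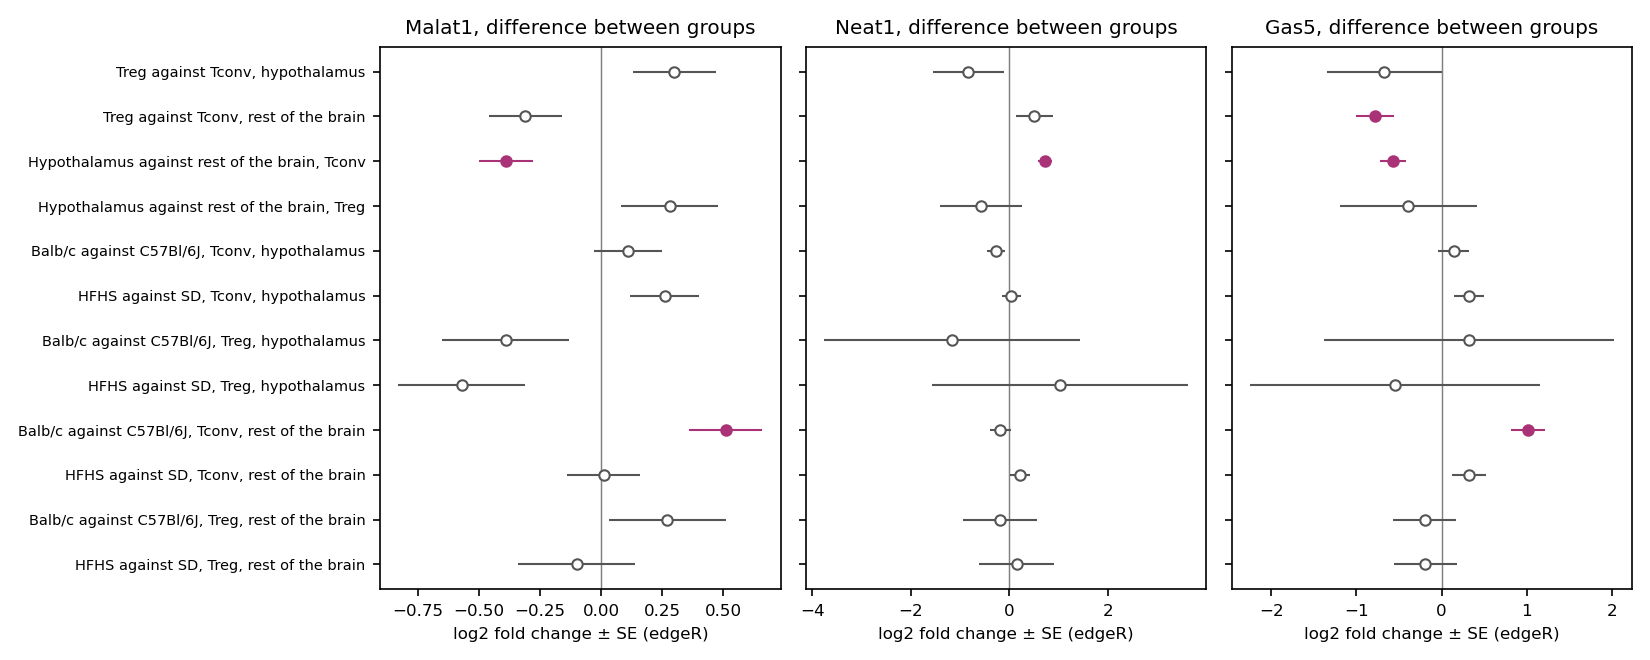
Difference in log2 level of Malat1, Neat1 and Gas5 in the 12 pairwise comparisons of the second experiment, as points with bars of 1 SE from edgeR, filled where the adjusted p is under 0.05; axes differ between panels. Filled points belong to the tissue comparison in Tconv, the strain comparison in Tconv of the rest of the brain, and Gas5 in Tregs against Tconv of the rest of the brain.

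The comparison of cell types asks how Tregs differ from Tconv within a tissue. In the rest of the brain, Gas5 fell in Tregs to a median of 106 CPM, from 191 CPM in Tconv, and was above the Tconv median in 1 of 14 Treg libraries and below the lowest Tconv library in 6. Malat1 was above the Tconv median in 5 of 14 Treg libraries, and Neat1 in 11 of 14. The cell types overlapped for each gene. Between the same libraries, CD8 genes had medians of 276 CPM in Tconv and 21.6 CPM in Tregs, and genes of macrophages and monocytes 261 and 118 CPM. Of the latter 8 genes, led by Ccr2, 1 to 6 passed 10 counts in Tconv and 0 to 2 in Tregs. Genes above 10 counts numbered 10773 and 8808, and the part of cell makeup in the change was not tested. The log2 difference in edgeR was −0.78 for Gas5 (SE 0.22, adjusted p = 0.0146, 1.72-fold lower), −0.31 for Malat1 (SE 0.15, adjusted p = 0.189) and 0.51 for Neat1 (SE 0.38, adjusted p = 0.462).

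In this comparison 1 of 3 passed, against 14.9% of 13918 genes, whose median was −0.19. Malat1 passed without pool 15_21 of Balb/c mice on HFHS diet and without pool 67_71 of C57Bl/6J mice on SD, where its difference was −0.45 at the lowest, with an adjusted p of 0.0272. In Balb/c libraries alone the difference of Gas5 was −1.61 (adjusted p = 0.00031), and in C57Bl/6J libraries alone −0.27 (adjusted p = 0.873). Over all genes, these fits called 2407 and 415. Whether the Gas5 differences of the strains differ was not tested. With pools as a replicate block, in the 12 pools with both cell types, the difference was −0.82 for Gas5 (adjusted p = 0.0584) and −0.40 for Malat1 (adjusted p = 0.0355).

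Few genes of the partner lists passed in Tregs against Tconv of the rest of the brain. Of all 13918 genes tested there, 608 rose and 1462 fell in Tregs. Of 17 snoRNA hosts, 0 passed either way, with a median of −0.60, and of 16 other long noncoding RNAs 0 passed, with a median of −0.73. Of 17 paraspeckle proteins, Ewsr1 (0.90) rose and 0 fell (median 0.29). Of 20 nuclear speckle and SR proteins, Srsf5 (0.33) rose and Srsf2 (−0.78) and Srsf7 (−0.58) fell (median −0.12). Of 10 decay factors 0 passed (median 0.05). Of the 10 glucocorticoid receptor genes, Dusp1 (1.27) rose and Zbtb16, a transcription factor of innate-like T cells, fell (−4.52), with a median of −0.02.

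In the hypothalamus, the Treg libraries lay on both sides of the Tconv libraries. Malat1 was above the Tconv median in 8 of 16 Treg libraries, and those 8 were above the highest Tconv library as well. Neat1 was below the lowest Tconv library in 11 of 16 Treg libraries, and Gas5 in 8 of 16. The log2 differences in edgeR were 0.30 (SE 0.17, adjusted p = 0.413) for Malat1, −0.83 (SE 0.72, adjusted p = 0.719) for Neat1 and −0.67 (SE 0.68, adjusted p = 0.788) for Gas5. Thus 0 of 3 passed, against 7.72% of 11251 genes, of which edgeR called 869, 1847 had an unadjusted p under 0.05 and DESeq2 called 1599; the all-gene median was −0.59.

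With sample quality weights in limma-voom, Neat1 (−2.52, adjusted p = 0.0057) and Gas5 (−1.72, adjusted p = 0.0207) passed as lower in hypothalamic Tregs, in a fit that called 7311 of 11251 genes and had an all-gene median of −3.60, so both fell less than the median gene. With the number of genes above 10 counts as a covariate, their differences had the opposite sign, at 2.08 and 1.49. In edgeR without the covariate, 61 of all 11251 genes rose and 808 fell in hypothalamic Tregs. Of the lists in that fit, the snoRNA host Dancr (−5.70, 1 of 16 tested) and Zbtb16 (−6.22, 1 of 10 tested) fell and 0 rose. Among 17 paraspeckle proteins, 20 nuclear speckle and SR proteins, 10 decay factors and 14 other long noncoding RNAs, 0 passed. The medians were −0.67 for snoRNA hosts, −0.35 for glucocorticoid receptor genes, and −0.50, 0.12, −0.59 and −0.82 for the other lists in the order named.

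The Treg difference of Malat1 itself differed between the tissues in the test of cell type by tissue over the 59 libraries. The interaction was 0.78 on the log2 scale for Malat1 (SE 0.26, adjusted p = 0.0303), higher in hypothalamic Tregs, −1.33 for Neat1 (SE 0.83, adjusted p = 0.413) and 0.20 for Gas5 (SE 0.72, adjusted p = 0.978). Thus 1 of 3 passed, against 12.9% of 14723 genes. For Malat1, the Treg median was above the Tconv median in the hypothalamus (15409 against 13686 CPM) and below it in the rest of the brain (12501 against 15587 CPM).

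This call of Malat1 was lost when libraries that stand apart were left out, and under other scalings. Without the 9 libraries of few genes it was 0.38 (adjusted p = 0.405), without the 2 libraries led by other markers 0.55 (adjusted p = 0.117), with DESeq2's test 0.52 (adjusted p = 0.361), with library totals 0.58 (adjusted p = 0.0989), with counts rebuilt from TPM 0.52 (adjusted p = 0.2), and with the number of genes above 10 counts as a covariate 0.54 (adjusted p = 0.329). Its adjusted p was above 0.05 without any 1 of 7 pools, of 21 in all: 47_25 of Balb/c mice on HFHS diet, 06_10, 37_41 and 42_46 of Balb/c mice on SD, 06_10 of C57Bl/6J mice on HFHS diet, and 11_15 and 62_66 of C57Bl/6J mice on SD. The range without 1 pool was 0.49 to 0.87, with adjusted p from 0.0126 to 0.271.

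The strain comparison sets female Balb/c mice against male C57Bl/6J mice. In Tconv of the rest of the brain, Gas5 and Malat1 rose in Balb/c mice. Gas5 was 191 to 386 CPM in 6 Balb/c libraries (median 257) and 96.1 to 195 CPM in 7 C57Bl/6J libraries (median 152). All 6 Balb/c libraries were above the C57Bl/6J median and 5 above its highest library, so the groups overlapped in the lowest Balb/c library. Malat1 was 11746 to 29207 CPM (median 16559) and 13897 to 17789 CPM (median 14831), with 5 of 6 Balb/c libraries above the C57Bl/6J median, 2 above its highest library and 1 below its lowest. In deposited TPM, which is per length and not scaled by TMM, the direction of Malat1 was the opposite, with medians of 2228 in Balb/c and 2604 in C57Bl/6J libraries, and Gas5 had 93.4 and 85.8.

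The log2 difference in edgeR was 1.01 for Gas5 (SE 0.20, adjusted p = 0.000991, 2.02-fold) and 0.51 for Malat1 (SE 0.15, adjusted p = 0.0153, 1.43-fold). Neat1 was 83.0 to 159 CPM in Balb/c (median 98.4) and 98.1 to 213 CPM in C57Bl/6J libraries (median 133), and its difference was −0.18 (SE 0.21, adjusted p = 0.582). Thus 2 of 3 passed, against 23.6% of 12257 genes, whose median was −0.03. Malat1 rests on pool 42_46 of Balb/c mice on SD, without which its difference was 0.31 (adjusted p = 0.0641). It was 0.26 (adjusted p = 0.228) with library totals in place of TMM scaling, and 0.33 (adjusted p = 0.152) with the number of genes above 10 counts as a covariate. With counts rebuilt from TPM and scaled by TMM, the differences were 0.52 for Malat1 (adjusted p = 0.0151) and 1.01 for Gas5 (adjusted p = 0.000968). Rebuilding multiplies the length back, so for these genes of 1 name each it is no separate support. Why the direction of Malat1 turned in deposited TPM was not tested. Over all alternatives the adjusted p of Malat1 ran from 0.00039 to 0.228 and that of Gas5 from 5.22e-06 to 0.00437.

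Of all 12257 genes tested for strain in Tconv of the rest of the brain, 1496 rose and 1395 fell in Balb/c mice. Of 17 snoRNA hosts, 8 rose, 0 fell and 9 did not pass, with a median of 1.41, among them Snhg11 (4.91) and Snhg4 (2.22). Of 20 nuclear speckle and SR proteins, 10 rose, including Tra2a (1.30) and Luc7l3 (1.28), and Srsf4 (−1.26) fell, with a median of 0.36. Of 17 paraspeckle proteins, 6 fell, including Rbm14 (−1.76) and Smarca4 (−1.18), Tardbp (0.79) rose and 10 did not pass (median −0.23).

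Of 10 decay factors, 3 rose, among them Upf3b (1.24), and Smg8 (−2.84) and Upf1 (−1.22) fell (median −0.49). Of 15 other long noncoding RNAs, 3 rose, with Meg3 (4.17) and Morrbid (1.65) in front, and Tug1 (−0.67) fell (median 0.67). Of the 10 glucocorticoid receptor genes, the kinase gene Sgk1 (0.83) rose and Dusp1 (−1.90) fell (median −0.05).

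Marker lists of other cells differed between the strains in the same libraries. Endothelial genes, 5 in all and led by Ly6c1, summed to 119 to 259 CPM in Balb/c (median 196) and 72.4 to 147 CPM in C57Bl/6J mice (median 95.7), but only 2 or 3 of them had more than 10 counts, and Cldn5 and Flt1 were at most 0.209 and 0.576 CPM in both strains. Oligodendrocyte genes went the other way, with medians of 184 and 357 CPM. CD8 genes, Cd8a and Cd8b1, summed to 276 to 479 CPM (median 348) and 1.94 to 736 CPM (median 39.8), led by Cd8b1, although CD8a was an exclusion marker in the study's flow cytometry. Neuronal genes summed to 0.313 to 102 CPM and 0.121 to 2.49 CPM, and the 10 T-cell genes to 8763 to 9889 CPM (median 9421) and 9169 to 11287 CPM (median 10933). Their part in the differences of Gas5 and Malat1 was not tested.

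In hypothalamic Tconv, the strains overlapped for each RNA. Malat1 was 11728 to 16630 CPM in Balb/c (median 14546) and 6759 to 15344 CPM in C57Bl/6J mice (median 13509). Neat1 was 117 to 303 CPM (median 209) and 180 to 405 CPM (median 231), and Gas5 was 105 to 193 CPM (median 155) and 63.5 to 162 CPM (median 144). Balb/c libraries were above the C57Bl/6J median in 5 of 8 for Malat1, 2 of 8 for Neat1 and 4 of 8 for Gas5. The log2 differences in edgeR were 0.11 (SE 0.14, adjusted p = 0.959), −0.27 (SE 0.19, adjusted p = 0.785) and 0.14 (SE 0.18, adjusted p = 0.959). The threshold was passed by 0 of 3, against 2.10% of 10846 genes, of which edgeR called 228, 1077 had an unadjusted p under 0.05 and DESeq2 called 459. Whether the strain differences of Gas5 and Malat1 differ between the tissues was not tested.

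In hypothalamic Tregs, Malat1 was 5872 to 32429 CPM in Balb/c (median 12518) and 7152 to 27647 CPM in C57Bl/6J mice (median 18377). Neat1 was 0.0662 to 377 CPM (median 36.4) and 0 to 503 CPM (median 91.6), and Gas5 was 0 to 201 CPM (median 96.1) and 0 to 238 CPM (median 43.3). The strains overlapped over most of their ranges. The differences in edgeR were −0.39 (SE 0.26), −1.16 (SE 2.60) and 0.32 (SE 1.7), each with adjusted p = 1, so that 0 of 3 passed, against 0.0389% of 7708 genes; edgeR called 3, 292 had an unadjusted p under 0.05 and DESeq2 called 250. Without the libraries of few genes the sign turned for each, to 0.68, 1.09 and −0.47, which rest on 4 Balb/c libraries on HFHS diet against 1 C57Bl/6J library on HFHS diet, pool 72_76.

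In Tregs of the rest of the brain, Malat1 was 9211 to 25496 CPM in Balb/c (median 13956) and 6890 to 18284 CPM in C57Bl/6J mice (median 11796), and 4 of 6 Balb/c libraries were above the C57Bl/6J median. Neat1 was 99.3 to 302 CPM (median 158) and 0.68 to 454 CPM (median 204), and Gas5 was 76.3 to 172 CPM (median 97.9) and 79.7 to 257 CPM (median 109). Both were above the C57Bl/6J median in 2 of 6 Balb/c libraries. The differences in edgeR were 0.27 (SE 0.24), −0.19 (SE 0.76) and −0.20 (SE 0.37), each with adjusted p = 1. Thus 0 of 3 passed, against 0.300% of 11679 genes; edgeR called 35, 1037 had an unadjusted p under 0.05 and DESeq2 called 298. With sample quality weights in limma-voom, Malat1 passed as higher in Balb/c mice (1, adjusted p = 0.00062). In the strain comparisons of hypothalamic Tconv and of Tregs of both tissues, edgeR called 0 genes of the 6 lists.

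The diet comparison asks whether HFHS diet changes these RNAs. In hypothalamic Tconv, Malat1 was 13397 to 16630 CPM on HFHS diet (median 14546) and 6759 to 16221 CPM on SD (median 12828), and 8 of 8 HFHS libraries were above the SD median, 1 of them above the highest SD library. Gas5 was 127 to 193 CPM (median 161) and 63.5 to 182 CPM (median 135), with 7 of 8 HFHS libraries above the SD median. Neat1 was 183 to 269 CPM (median 228) and 117 to 405 CPM (median 206), with 6 of 8. The diets overlapped for each RNA.

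The log2 differences in edgeR were 0.26 for Malat1 (SE 0.14, unadjusted p = 0.0744), 0.32 for Gas5 (SE 0.18, unadjusted p = 0.0849) and 0.04 for Neat1 (SE 0.19), each with adjusted p = 1 by edgeR. By this test 0 of 3 passed, against 0% of 10846 genes, with 405 at an unadjusted p under 0.05 and 9 called by DESeq2. Without pool 11_15 of C57Bl/6J mice on SD, the lowest for Malat1 and Gas5 and the highest for Neat1, the differences of Malat1, Neat1 and Gas5 were 0.15, 0.16 and 0.21.

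In Tconv of the rest of the brain, Malat1 was 11746 to 19770 CPM on HFHS diet (median 16469) and 13897 to 29207 CPM on SD (median 15110). Neat1 was 85.3 to 192 CPM (median 139) and 83.0 to 213 CPM (median 121), and Gas5 was 143 to 386 CPM (median 211) and 96.1 to 262 CPM (median 191). HFHS libraries were above the SD median in 4 of 6 for Malat1 and 3 of 6 for Neat1 and Gas5. The differences in edgeR were 0.01 (SE 0.15), 0.22 (SE 0.21) and 0.32 (SE 0.20), each with adjusted p = 0.999. Of the 3, 0 passed, against 0% of 12257 genes, with 594 at an unadjusted p under 0.05 and 12 called by DESeq2. The sign of Malat1 was negative with DESeq2's size factors, with library totals and in Balb/c libraries alone, and without 1 pool its difference ran from −0.05 to 0.14.

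In hypothalamic Tregs, Malat1 was 7152 to 23070 CPM on HFHS diet (median 11415) and 5872 to 32429 CPM on SD (median 19773). Only 2 of 8 HFHS libraries were above the SD median of Malat1, pools 06_10 and 33_37 of C57Bl/6J mice, and the ranges overlapped. Neat1 was 0 to 377 CPM (median 93.0) and 0.0662 to 503 CPM (median 52.3), and Gas5 was 0 to 194 CPM (median 63.0) and 0 to 238 CPM (median 76.7). The log2 differences in edgeR were −0.57 for Malat1 (SE 0.26, unadjusted p = 0.0408), 1.03 for Neat1 (SE 2.60) and −0.55 for Gas5 (SE 1.7), each with adjusted p = 1 by edgeR. Here 0 of 3 passed, against 0% of 7708 genes, with 212 at an unadjusted p under 0.05 and 182 called by DESeq2.

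In hypothalamic Tregs, 2 alternatives put the adjusted p of Malat1 for diet under the threshold. Its difference was −1.79 (adjusted p = 2.77e-11) without the libraries of few genes, which left 5 HFHS libraries and 2 SD libraries (pool 67_71 and pool 11_15, the one led by endothelial genes), and −1.15 (adjusted p = 0.0031) with sample quality weights, where the all-gene medians were −0.64 and 0.84; over all alternatives its adjusted p ran from 2.77e-11 to 1. The first of these holds no Balb/c library on SD, so with strain as a term the diet difference sets 1 C57Bl/6J library on HFHS diet (pool 72_76) against those 2 SD libraries, and its p rests on spread within other groups. Of the 9 libraries of few genes, 4 of Balb/c and 2 of C57Bl/6J mice were on SD. The part of library complexity in this difference was not tested further.

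In Tregs of the rest of the brain, Malat1 was 8412 to 25496 CPM on HFHS diet (median 11590) and 6890 to 18284 CPM on SD (median 14416). Neat1 was 129 to 302 CPM (median 182) and 0.68 to 454 CPM (median 161), and Gas5 was 76.3 to 172 CPM (median 109) and 79.7 to 257 CPM (median 99.2). HFHS libraries were above the SD median in 2 of 8 for Malat1 and 5 of 8 for Neat1 and for Gas5, and the diets overlapped. The differences in edgeR were −0.10 (SE 0.24), 0.15 (SE 0.76) and −0.19 (SE 0.37), each with adjusted p = 1. Thus 0 of 3 passed, against 0% of 11679 genes, with 850 at an unadjusted p under 0.05 and 326 called by DESeq2. With sample quality weights the sign of Malat1 turned (0.49, adjusted p = 9.26e-06, all-gene median 0.42), with counts rebuilt from TPM that of Neat1 did (−0.05), and without 1 pool the differences ran from −0.27 to 0.04 for Malat1, −0.06 to 0.56 for Neat1 and −0.30 to 0.10 for Gas5. In the 4 diet comparisons, edgeR called 0 genes of the 6 lists.

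The interaction of strain with diet was tested for each cell type and tissue in edgeR. In Tconv of the rest of the brain it was 0.78 for Gas5 (SE 0.34, unadjusted p = 0.0335, adjusted p = 0.325 by edgeR), −0.12 for Malat1 (adjusted p = 0.928) and 0.35 for Neat1 (adjusted p = 0.816). In hypothalamic Tregs it was 6.36 for Neat1 (SE 3.32, adjusted p = 0.339), with 377, 237, 26 and 254 CPM in the Balb/c pools 11_14, 15_21, 16_20 and 26_31 on HFHS diet and 0.118, 4.5, 46.9 and 0.0662 CPM in the Balb/c pools 06_10, 32_36, 37_41 and 42_46 on SD. In C57Bl/6J mice, Neat1 was 0, 31.2, 106 and 80.4 CPM in pools 06_10, 33_37, 72_76 and 77_80 on HFHS diet and 503, 178, 57.7 and 103 CPM in pools 11_15, 43_47, 62_66 and 67_71 on SD. All 4 Balb/c libraries on SD are among those of few genes, and none on HFHS diet is. The interaction was −0.70 for Malat1 (adjusted p = 0.605) and 1.62 for Gas5 (adjusted p = 1) there. In hypothalamic Tconv and in Tregs of the rest of the brain, each RNA had an adjusted p of 1.

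Library complexity, the number of genes above 10 counts, went with Neat1 and Gas5 over the 59 libraries. The correlation of log2(CPM + 1) with log2 of that number was −0.04 for Malat1, 0.68 for Neat1 and 0.72 for Gas5, and over the 29 Tconv libraries it was 0.47, −0.53 and 0.43. The points share pools, tissues and cell types, so these and the following correlations are descriptions. Neat1 went with complexity in opposite directions in the whole set and in Tconv.

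**Figure D4:**
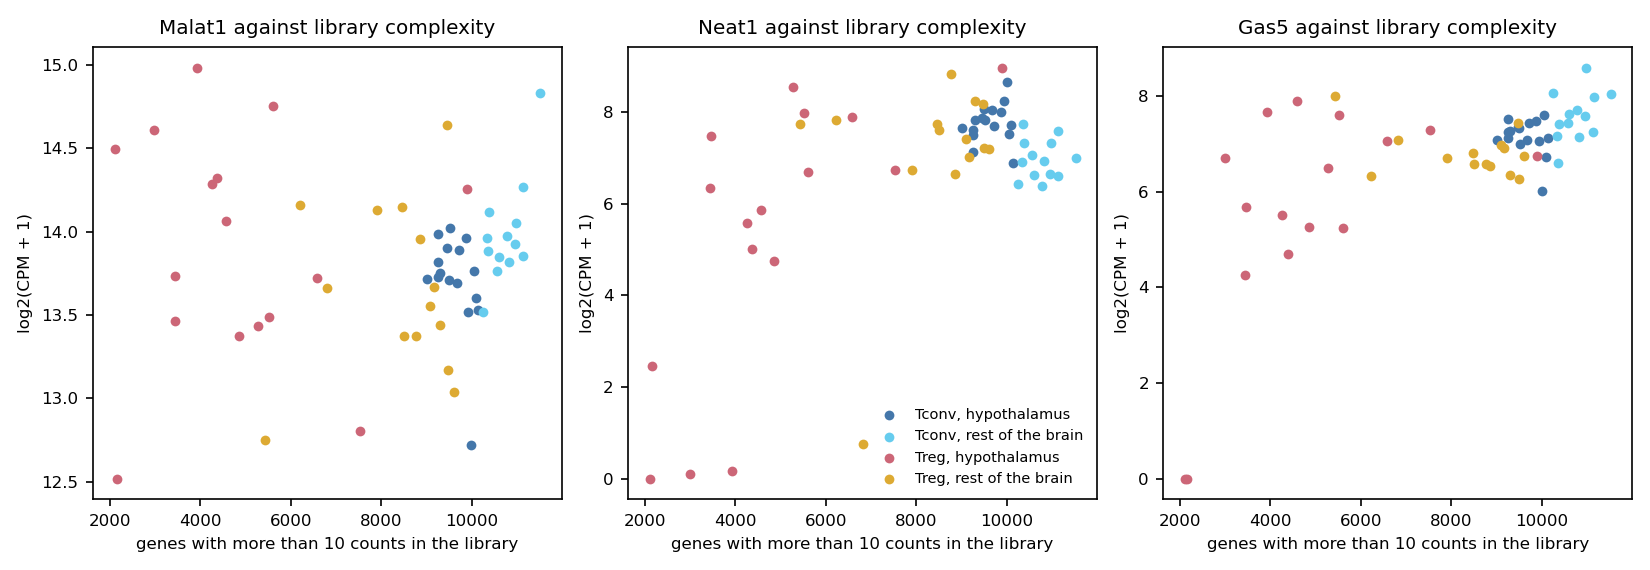
Level of Malat1, Neat1 and Gas5, as log2(CPM + 1), against the number of genes with more than 10 counts in each of the 59 libraries of the second experiment, coloured by cell type and tissue. The lowest values of Neat1 and Gas5 belong to Treg libraries, and Malat1 shows little slope (r = −0.04).

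Among themselves, Malat1 and Neat1 had a correlation of −0.32 over 59 libraries and −0.54 over the 29 Tconv libraries, although their genes are neighbours. Malat1 and Gas5 had 0.13 and 0.77, and Neat1 and Gas5 had 0.46 and −0.54. In Tconv the pair Malat1 and Gas5 thus went together and Neat1 the other way. Of 8999 genes above 10 counts in 30 or more libraries, the 5 most like Malat1 over 59 libraries were Ndufa5 (0.60) and Rpl36 (0.55), of the respiratory chain and the ribosome, Dpy30 (0.49), the nuclear speckle protein Srrm2 (0.48) and Atp6v1f (0.48). Those most like Neat1 were the interferon receptor chain Ifnar2 (0.83), Bcap31 (0.81), Rfc2 (0.79), Arcn1 (0.79) and Ap3m1 (0.78), and those most like Gas5 were Sec62 (0.88), Prdx6 (0.88), Gabarapl2 (0.87), Ywhab (0.86) and Ndufv2 (0.84).

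Over the 29 Tconv libraries, the genes most like Malat1 were a transcript name without a matched gene (0.82), Gas5 (0.77), the RNA-binding Lsm8 (0.77), Asb3 (0.76) and Rps21 (0.76). Those most like Gas5 were Ssbp1 (0.91), Rtraf (0.91), Lsm8 (0.91), the exosome subunit Exosc8 (0.90) and Atp5l (0.90). Neat1 was most like Polg (0.70), the mitochondrial DNA polymerase, Arhgap45 (0.70), Map1s (0.69), Rps6ka4 (0.69) and Kcnab2 (0.69). Lsm8 was in both the Malat1 and the Gas5 lists of Tconv.

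In the pilot experiment, Malat1 was the most abundant gene in 7 of 8 libraries, and in *ob*/*ob* CD4+CD25++ cells it was next to Tmsb4x (68111 against 69202 CPM). Malat1 made up 8.90% of counts on genes in *ob*/*ob* CD4+CD25- cells (95% Clopper-Pearson interval 8.85% to 8.94%) and 6.81% in their CD4+CD25++ cells (6.66% to 6.97%). It made up 5.37% in CD4+CD25- cells of WT mice (5.28% to 5.47%). In CD4+CD25++ cells of WT mice Malat1 stood at 259961 CPM, and there 10 microglial genes summed to 39031 CPM and the 10 T-cell genes to 99.7 CPM, with 7 of them at 0.

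In Balb/c mice, Malat1 made up 7.45% (7.41% to 7.48%) of counts in CD44 low+int cells on HFHS diet and 5.15% (5.12% to 5.17%) on SD, and 14.2% (14.2% to 14.3%) of counts in Tregs on HFHS diet and 8.43% (8.38% to 8.48%) on SD. These shares are counts on gene symbols from another read counting method than that of the second experiment, so the levels of the experiments were not compared. Counts on genes were 99925 to 5334511 per library. They were 0.391% of all reads in *ob*/*ob* CD4+CD25++ cells and 0.791% in CD4+CD25- cells of WT mice. The highest share was 17.1%, in CD4+CD25++ cells of WT mice. Genes above 10 counts numbered 1523 in the first of these libraries and 2299 in the second. The counting intervals do not cover this loss of reads.

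Neat1 and Gas5 were far below Malat1 in each pilot library. Neat1 had 338 counts (196 CPM) and Gas5 547 (317 CPM) in *ob*/*ob* CD4+CD25- cells, and 33 (150 CPM) and 5 (22.7 CPM) in those of WT mice. In CD4+CD25++ cells, Neat1 had 0 counts in *ob*/*ob* mice, where 3 counts would be 30 CPM and Il2ra was at 0 too, and 240 (45.0 CPM) in WT mice, and Gas5 had 2 (20 CPM) and 1755 (329 CPM). In Balb/c mice, Neat1 had 266 CPM on HFHS diet and 225 CPM on SD in CD44 low+int cells, and 474 and 273 CPM in Tregs. Gas5 had 306 and 407 CPM in the former and 228 and 105 CPM in Tregs.

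The pilot folds have 1 library a side, so they carry counting error and no test across animals. On HFHS diet against SD in Tregs, with DESeq2 size factors, the fold was 2.31 for Malat1 (95% interval 2.29 to 2.32), 2.38 for Neat1 (2.10 to 2.70) and 2.96 for Gas5 (2.43 to 3.62). Thus 3 of 3 were past 2-fold, against 80.5% of 5445 genes with more than 20 normalized reads in either library. Markers of other cells differed between these 2 libraries: neuronal genes summed to 0 CPM on HFHS diet and 417 CPM on SD, astrocyte genes to 34 and 730 CPM, B-cell genes to 0 and 222 CPM, and genes of macrophages and monocytes to 752 and 77.8 CPM. The B-cell sum was Ms4a1 alone. The macrophage and monocyte sum was Ccr2 alone on HFHS diet and Cd68 alone on SD, so these members went opposite ways. In CD44 low+int cells the folds of Malat1, Neat1 and Gas5 were 1.62 (1.61 to 1.63), 1.32 (1.18 to 1.47) and 0.840 (0.764 to 0.922), so that 0 of 3 were past 2-fold, against 61.9% of 6686 genes. Foxp3 was 1.38 CPM on HFHS diet and 72.7 CPM on SD in these CD44 low+int libraries, the latter near the 75.3 CPM of Tregs on SD. The 6 Treg genes together went the other way, with 752 CPM on HFHS diet and 389 CPM on SD. Both sums were far below the 6236 CPM of Tregs on SD. The part of these markers in the folds of both pairs was not tested. The direction of Malat1 in pilot Tregs of Balb/c mice, which had no test across animals, is the opposite of that of its difference in hypothalamic Tregs of Balb/c mice in the second experiment (−0.77 on the log2 scale, adjusted p = 0.999).

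In *ob*/*ob* against WT mice, CD4+CD25- T cells had folds of 1.67 for Malat1 (1.63 to 1.7), 1.31 for Neat1 (0.918 to 1.94) and 14 for Gas5 (5.98 to 43.4), which rests on 5 counts in WT mice. In that WT library, Foxp3 was 300 CPM, against 27.8 CPM in the *ob*/*ob* library and 75.3 CPM in Balb/c Tregs on SD, and the Treg genes summed to 2918 against 1532 CPM, while Il2ra, the gene of CD25, was at 0 there. These Treg genes go against its label, and their part in the folds was not tested. Thus 1 of 3 was past 2-fold, against 89.9% of 6440 genes. With size factors of the 2 libraries, the folds were 3.19 for Malat1, 2.52 for Neat1 and 26.9 for Gas5. In CD4+CD25++ cells the folds were 0.0767 for Malat1 (0.0749 to 0.0785) and 0.0178 for Gas5 (0.00215 to 0.0644). Neat1, at 0 in *ob*/*ob* mice, was 5.12-fold lower with that 0 set to the floor of 3 counts (upper 95% limit of the ratio 0.242). Here 3 of 3 were past 2-fold, against 91.4% of 5978 genes, and the WT library of this pair is the library with microglial genes, whose part in the folds was not tested. With library totals in place of size factors, the folds in this pair were 0.262 for Malat1, 0.0608 for Gas5 and 0.667 for Neat1 at its floor. With the same totals, the folds in Tregs of Balb/c mice were 1.69 for Malat1, 1.74 for Neat1 and 2.16 for Gas5.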

How the data were processed

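RNA of T cells was sequenced in 8 pilot libraries of the hypothalamus and 59 libraries of both tissues in the second experiment. For the pilot, the authors mapped reads to mm10 with BWA and counted them with HTSeq, and the deposited values are counts per gene symbol. For the second experiment, the authors ran Salmon, and the deposited values are estimated counts and TPM per transcript name. Of 35034 names, 34850 (99.5%) were matched to a gene, names of a gene were summed, and the 184 others were kept as features. CPM is the estimated count scaled to the library total. Totals were 1724154 to 38482282 per library.

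Rounded counts were tested in R 4.3.3 with edgeR 4.0.16 (TMM scaling, quasi-likelihood F test, Benjamini-Hochberg adjustment over all genes, threshold 0.05) on genes above 10 counts in a number of libraries not under the size of the smallest strain and diet group. Cell types, tissues, strains and diets were compared in 12 pairwise comparisons with the other factors as terms, and 5 interactions were fitted. Log2 differences are Tregs minus Tconv, hypothalamus minus rest of the brain, Balb/c minus C57Bl/6J and HFHS diet minus SD. Pilot counts were divided by DESeq2 size factors over 8 libraries, with exact Clopper-Pearson 95% intervals, and 3 counts were taken as the floor; a gene was past the fold above 2 or below 0.5. The fit was also tested on simulated data, where false calls in the tissue comparison of Tconv were above the nominal share.

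Alternatives were DESeq2 size factors or library totals in place of TMM, DESeq2 1.42.0, limma 3.58.1 with sample quality weights, no filter, log2 of the number of genes above 10 counts as a covariate, leaving out libraries of few genes, 1 strain alone, pools as a replicate block, and each pool left out in turn. Leaving out the libraries led by other markers, and counts rebuilt from TPM (TPM times the mean length of the gene, scaled to the library total) in edgeR, were chosen after seeing the data. Pilot alternatives were library totals, with or without Malat1, and size factors of the 2 libraries.

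The members and lists were chosen with earlier results of these data known. Named genes are the 3 members; for each, the 5 genes of highest correlation of log2(TMM-scaled CPM + 1) over 59 and over 29 Tconv libraries, among genes above 10 counts in 30 or more; from each list at most the 2 largest increases and 2 largest decreases with adjusted p under 0.05; and the most abundant gene of each marker list. Other genes named are library-specific markers at 0, the top pilot gene, and single genes given after their values were seen. Lists are paraspeckle proteins (17 genes), nuclear speckle and SR proteins (20), snoRNA host RNAs (19), nonsense-mediated decay factors (10), the glucocorticoid receptor and targets (10), other long noncoding RNAs (18), and markers of T cells, Tregs, microglia, macrophages and monocytes, neurons, astrocytes, oligodendrocytes, endothelial cells, B cells, CD8 T cells and erythroid cells. Python 3.11.15, numpy 2.4.6, pandas 2.3.3, scipy 1.17.1 and matplotlib 3.10.9 were used.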

Additional observations from a re-analysis of the deposited data

Results flagged for a closer look

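In 36 tests of a single far library, 3 RNAs in each of 12 groups of 4 pools, 4 values stood far from the others of their group, and chance alone gives about 1 in 20 of such tests. Malat1 was 6759 CPM in hypothalamic Tconv of C57Bl/6J mice on SD, pool 11_15, while the other pools of the group were between 13223 and 14464 CPM. Malat1 was 16221 CPM in hypothalamic Tconv of Balb/c mice on SD, pool 06_10, with a lowest pool at 11728 CPM, and the gap to the nearest pool was 0.843 of the range of the group. Gas5 was 155 CPM in hypothalamic Tregs of C57Bl/6J mice on HFHS diet, pool 72_76, while the others were between 0 and 24.9 CPM. Neat1 was 46.9 CPM in hypothalamic Tregs of Balb/c mice on SD, pool 37_41, while the others were between 0.0662 and 4.5 CPM.

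The difference of Malat1 between Tregs and Tconv differed between the tissues, by an interaction of 0.78 on the log2 scale in edgeR (adjusted p = 0.0303), higher in Tregs of the hypothalamus. Over the alternatives its adjusted p ran from 0.00809 to 0.405.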

How the results depend on the processing

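Of 7 differences of Malat1, Neat1 and Gas5 past the threshold, 45 of 63 values under the alternatives kept direction and side of the threshold and 18 kept direction alone, with no reversal; leaving out 1 pool at a time, 114 of 122 values kept both. Over all 51 differences and interactions, 382 of 450 values under the alternatives kept both, 18 lost the threshold, 8 gained it and 42 had the opposite sign, and leaving out 1 pool 769 of 810 kept both. The difference of Gas5 between strains in Tconv of the rest of the brain passed under every alternative of the edgeR fit (medians of 93.4 and 85.8 in deposited TPM). With counts rebuilt from TPM, chosen after seeing the data, the interaction of cell type with tissue was 0.52 for Malat1 (adjusted p = 0.2), Neat1 was −0.05 for diet in Tregs of the rest of the brain, and no other call or sign of the 3 RNAs changed. TPM in place of CPM moved each of 12 mean levels, taken against the mean of all libraries, by less than 1 SD between libraries. The order of sets was not kept for Malat1, where Tconv of the rest of the brain went from 0.18 to 0.03 on the log2 scale and hypothalamic Tregs had 0.09 in both; hypothalamic Tconv had −0.10 and −0.08, so the step between tissues in Tconv shrank, as it did for Gas5. Where a value changed, the cause was not tested. The interaction of strain with diet in hypothalamic Tregs without the libraries of few genes was not run, since it could not be fitted. A count of 0 allows up to 0.258 CPM of Neat1 and Gas5 in hypothalamic Tregs of pool 06_10 of C57Bl/6J mice on HFHS diet, and 0.293 CPM of Gas5 in those of pool 32_36 of Balb/c mice on SD.

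With sample quality weights in limma-voom, the difference of Tregs from Tconv in the hypothalamus was −2.52 for Neat1 (adjusted p = 0.0057) and −1.72 for Gas5 (0.0207), and the interaction of cell type with tissue was −2.70 for Neat1 (0.00674) and −0.34 for Gas5; the all-gene medians of these fits were −3.60 and −1.54. Strain gave 0.14 for Malat1 in hypothalamic Tregs, and 1 for Malat1 (0.00062) and 0.34 for Neat1 in Tregs of the rest of the brain. Diet gave −1.15 for Malat1 (0.0031) and 0.13 for Gas5 in hypothalamic Tregs and 0.49 for Malat1 (9.26e-06) in Tregs of the rest of the brain, with all-gene medians of 0.84 and 0.42. Strain by diet gave 0.09 for Gas5 in hypothalamic Tconv, 0.02 for Malat1 in Tconv of the rest of the brain, and 0.29 for Malat1 and −0.69 for Neat1 in Tregs of the rest of the brain.

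With the number of genes above 10 counts as a covariate, Tregs against Tconv in the hypothalamus gave 2.08 for Neat1 and 1.49 for Gas5. The tissue comparison gave −0.57 for Malat1 (adjusted p = 0.194) and −1.01 for Gas5 (0.0541) in Tconv, and 1.01 for Neat1 and 0.88 for Gas5 in Tregs. Strain gave 0.33 for Malat1 (0.152) in Tconv of the rest of the brain and 0.09 for Gas5 in Tregs there. Diet in Tregs of the rest of the brain gave −0.01 for Neat1 and 0.38 for Gas5. The interaction of cell type with tissue was 0.54 for Malat1 (0.329), and strain by diet in Tconv of the rest of the brain was 0.01 for Malat1.

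Without the 9 libraries of few genes, Neat1 was 0.07 in Tregs against Tconv of the hypothalamus and 0.28 in the tissue comparison of Tregs. Strain in hypothalamic Tregs then gave 0.68, 1.09 and −0.47 for Malat1, Neat1 and Gas5, diet gave −1.79 (adjusted p = 2.77e-11), −1.67 and 0.99, both comparisons resting on 1 C57Bl/6J library on HFHS diet (pool 72_76), and the interaction of cell type with tissue was 0.38 for Malat1 (0.405). Without the 2 libraries led by other markers, chosen after seeing the data, Neat1 was 0.14 for strain in hypothalamic Tregs and the interaction of Malat1 was 0.55 (0.117). With no filter, Malat1 passed as lower in Tregs of the rest of the brain (−0.38, 0.019).

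With pools as a replicate block, Tregs against Tconv in the rest of the brain gave −0.40 for Malat1 (adjusted p = 0.0355) and −0.82 for Gas5 (0.0584), and the tissue comparison in Tconv gave −0.50 for Malat1 (0.123), 1.01 for Neat1 (0.043) and −0.76 for Gas5 (0.07); the other blocked fits changed no call of the 3 RNAs. Labels of a pair share strain, diet and pool, and of 15, 12, 9 and 10 pairs 0 had a residual correlation over 0.1.

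In C57Bl/6J libraries alone, Gas5 was −0.27 (adjusted p = 0.873) in Tregs against Tconv of the rest of the brain, and the tissue comparison in Tconv gave −0.22 (1), 0.75 (0.209) and −0.15 (1) for Malat1, Neat1 and Gas5. Diet gave −0.14 for Neat1 in hypothalamic Tconv, −2.21 for Neat1 in hypothalamic Tregs, −0.02 for Gas5 in Tconv of the rest of the brain, and 0.03 for Malat1 and −0.39 for Neat1 in Tregs there. In Balb/c libraries alone, Malat1 was −0.08 in the tissue comparison of Tregs, and diet gave 0.44 for Gas5 in hypothalamic Tregs, −0.10 for Malat1 in Tconv of the rest of the brain and 0.22 for Gas5 in Tregs there.

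With DESeq2's test, and with its size factors in edgeR, diet in Tconv of the rest of the brain gave −0.00078 for Malat1, and the interaction of cell type with tissue was 0.52 for Malat1 (adjusted p = 0.361 and 0.183) and −0.03 for Gas5. With library totals, Malat1 was 0.26 (0.228) for strain and −0.07 for diet in Tconv of the rest of the brain, Neat1 was −0.0011 for diet in hypothalamic Tconv, the interaction of cell type with tissue was 0.58 for Malat1 (0.0989), and strain by diet in Tconv of the rest of the brain was −0.03 for Neat1. The all-gene median of Tregs against Tconv in the hypothalamus moved most, by −4.03 with pools as a replicate block, −3.01 with sample quality weights and 1.28 with the covariate. Sample quality weights moved it by −1.76 for tissue in Tregs, −1.46 in the interaction of cell type with tissue and 3.13 for strain by diet in hypothalamic Tregs. Library totals moved it by −0.27 for strain in Tconv of the rest of the brain, −0.11 in the interaction of cell type with tissue, 0.12 for strain in hypothalamic Tregs and −0.36 for strain by diet in Tconv of the rest of the brain; DESeq2 size factors moved it by −0.18 in the interaction, and by 0.13 for strain and −0.16 for diet in hypothalamic Tregs.

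Without 1 pool, Malat1 in Tregs against Tconv of the rest of the brain ran from −0.45 to −0.29, called without pool 15_21 of Balb/c mice on HFHS diet or 67_71 of C57Bl/6J mice on SD (adjusted p of 0.0272 at the lowest). For strain in Tconv of the rest of the brain Malat1 ran from 0.31 to 0.57, with 0.31 (adjusted p = 0.0641) without pool 42_46 of Balb/c mice on SD, and Neat1 in Tregs there from −0.35 to 0.03. Diet ran from −0.05 to 0.17 for Neat1 in hypothalamic Tconv, from −0.05 to 0.14 for Malat1 in Tconv of the rest of the brain, and in Tregs there from −0.27 to 0.04, −0.06 to 0.56 and −0.30 to 0.10 for Malat1, Neat1 and Gas5. The interaction of cell type with tissue ran from 0.49 to 0.87 for Malat1, not past the threshold without any 1 of 7 pools, and from −0.10 to 0.35 for Gas5. Strain by diet ran from −0.09 to 0.24 for Malat1 and −0.20 to 0.17 for Gas5 in hypothalamic Tconv, from −0.25 to 0.11 for Malat1 and −0.04 to 0.49 for Neat1 in Tconv of the rest of the brain, and from −0.64 to 0.01 for Malat1 in Tregs there.

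The number of genes called moved past 1.5-fold in 56 of 150 alternatives. It ran from 150 to 7311 for Tregs against Tconv in the hypothalamus (869 as reported) and 415 to 5725 in the rest of the brain (2070), from 1 to 7904 for tissue in Tconv (2169) and 0 to 4716 in Tregs (618), from 169 to 459 for strain in hypothalamic Tconv (228), 1 to 250 in hypothalamic Tregs (3) and 21 to 298 in Tregs of the rest of the brain (35), and from 1236 to 5904 for the interaction of cell type with tissue (1904). Diet, with 0 as reported, reached 9 and 182 in hypothalamic Tconv and Tregs, and 12 and 326 in those of the rest of the brain. Strain by diet, with 0 as reported, reached 190 in hypothalamic Tconv, 1329 in hypothalamic Tregs and 573 in Tregs of the rest of the brain, and ran from 2 to 680 in Tconv there (118). Leaving out 1 pool, the last was 0 without any of 8 pools (16_20 and 47_25 of Balb/c mice on HFHS diet, 37_41 and 42_46 of Balb/c mice on SD, 33_37 and 77_80 of C57Bl/6J mice on HFHS diet, 01_05 and 11_15 of C57Bl/6J mice on SD), 3 without 62_66 of C57Bl/6J mice on SD and 232 without 38_42 of C57Bl/6J mice on HFHS diet. Without pool 11_15 of C57Bl/6J mice on SD, 1485 genes were called for Tregs against Tconv in the hypothalamus and 1196 for tissue in Tregs, and without pool 42_46 of Balb/c mice on SD 367.

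For pilot folds, 17 of 36 moved outside the 95% counting interval of the fold as reported. In CD44 low+int cells Malat1 was 1.45 with library totals, 1.48 with totals without Malat1 and 1.77 with size factors of the 2 libraries, and Gas5 was 0.752 with totals. In Tregs, totals with and without Malat1 gave 1.69 and 1.80 for Malat1, 1.74 and 1.86 for Neat1, and 2.16 and 2.31 for Gas5. In *ob*/*ob* against WT CD4+CD25- cells, size factors of the 2 libraries gave 3.19 for Malat1, 2.52 for Neat1 and, within its wide interval, 26.9 for Gas5, and totals without Malat1 gave 1.72 for Malat1. In CD4+CD25++ cells, totals with and without Malat1 gave 0.262 and 0.208 for Malat1 and 0.667 and 0.530 for Neat1 at its floor, and totals gave 0.0608 for Gas5.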

Other observations

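The marker lists of other cells give the setting of the 3 RNAs in each set of libraries of the second experiment, as summed levels with their lowest, median and highest value. Microglial genes (10) summed to 59.9, 95.3 and 222 CPM in hypothalamic Tconv, 68.9, 103 and 820 CPM in Tconv of the rest of the brain, 0.0567, 244 and 29827 CPM in hypothalamic Tregs and 54.9, 203 and 391 CPM in Tregs of the rest of the brain. Genes of macrophages and monocytes (8, led by Ccr2) had medians of 236, 261, 141 and 118 CPM in the same order, with a highest value of 2623 CPM in hypothalamic Tregs. Genes of oligodendrocytes (6, led by Cnp) had medians of 316, 322, 404 and 412 CPM, with a highest value of 1248 CPM in Tregs of the rest of the brain.

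Endothelial genes (5, led by Ly6c1) had medians of 95.1, 125, 2.14 and 112 CPM, and CD8 genes (2, led by Cd8b1) had medians of 218, 276, 0.0688 and 21.6 CPM, so hypothalamic Tregs held the lowest median of both lists. Neuronal genes (8) had medians of 0.108, 1.36, 0.0568 and 0.238 CPM, astrocyte genes (6, led by Aldoc) of 2.38, 3.94, 0.0496 and 13.2 CPM, B-cell genes (5) of 0, 5.12, 0 and 19.3 CPM, and erythroid genes (6, led by Hba-a2) of 0, 0, 0 and 3 CPM. The highest values of the astrocyte, B-cell and erythroid lists were 1057, 444 and 1429 CPM, each in a library of hypothalamic Tregs. Their part in the levels of Malat1, Neat1 and Gas5 was not tested.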
